A study of Homo sapiens with 12 samples.

Results

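The circadian clock genes examined here are the activators CLOCK and BMAL1, the period genes PER1, PER2 and PER3, the cryptochromes CRY1 and CRY2, the nuclear receptor NR1D2, and the repressors BHLHE40 and BHLHE41. A gene was included where the array annotation pairs a probe set with its symbol alone. This held for 9 of the 10 genes, each with 1 probe set, out of 14232 genes measured in this way. The probe set for PER3 is paired with UTS2 as well, so PER3 has no value here.

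RNA came from LN229, an established human glioblastoma line, on 12 arrays in 4 groups of 3. The groups were hypoxia (1% oxygen) with HIF1A siRNA, hypoxia with HIF2A siRNA, hypoxia with a control siRNA that has no target, and normoxia (20% oxygen) with the control siRNA. Every culture had therefore been transfected, 24 h after seeding, and the oxygen was changed 48 h later for a further 16 h. The labels name no step that sets the cells' clocks to a common phase, and there is 1 harvest time, so levels here are not positions in a daily cycle. The siRNAs target HIF1A and EPAS1 (the gene of HIF2A), whose proteins are the alpha subunits of the hypoxia-inducible factors and are degraded when oxygen is ample. The labels do not say that replicates were separate cultures, so p-values measure the spread between these arrays, which may be technical.

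The clock is a feedback loop of transcription. CLOCK and BMAL1 bind as a pair to E-box elements, DNA sites with the letters CACGTG, and drive the PER and CRY genes, whose proteins return to the nucleus and inhibit the pair. NR1D2 (REV-ERB beta) represses BMAL1, and BHLHE40 and BHLHE41 (also known as DEC1 and DEC2) occupy E-boxes themselves and repress genes that CLOCK and BMAL1 activate. Hypoxia-inducible factors recognise a related core, ACGTG or GCGTG, and BHLHE40 and BHLHE41 are long known as hypoxia-inducible genes.

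Promoter sequences are shown for the 4 measured genes that hold CACGTG within a window from 250 bases before to 50 bases after an annotated start, because these letters join the repressors to the loop they act on. The sequences are RefSeq's, from GRCh38.p14, read 5′ to 3′ on the gene's strand, and capitals mark ACGTG or GCGTG on either strand, which covers CACGTG. All 9 genes had an entry, with 13 windows in all.
BHLHE40, chr3:4979187-4979486, plus strand: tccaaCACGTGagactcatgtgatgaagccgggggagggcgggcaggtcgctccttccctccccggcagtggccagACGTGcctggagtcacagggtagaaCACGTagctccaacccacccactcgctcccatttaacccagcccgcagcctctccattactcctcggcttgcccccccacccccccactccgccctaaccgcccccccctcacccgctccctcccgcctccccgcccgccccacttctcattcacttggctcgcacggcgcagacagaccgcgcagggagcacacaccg
BHLHE41, chr12:26124988-26125287, minus strand: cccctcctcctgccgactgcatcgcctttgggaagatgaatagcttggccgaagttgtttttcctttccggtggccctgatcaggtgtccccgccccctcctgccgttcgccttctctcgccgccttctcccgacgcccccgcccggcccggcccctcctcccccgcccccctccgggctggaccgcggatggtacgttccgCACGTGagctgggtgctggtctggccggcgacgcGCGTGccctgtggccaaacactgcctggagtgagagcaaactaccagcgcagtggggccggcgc
PER1, chr17:8152355-8152654, minus strand: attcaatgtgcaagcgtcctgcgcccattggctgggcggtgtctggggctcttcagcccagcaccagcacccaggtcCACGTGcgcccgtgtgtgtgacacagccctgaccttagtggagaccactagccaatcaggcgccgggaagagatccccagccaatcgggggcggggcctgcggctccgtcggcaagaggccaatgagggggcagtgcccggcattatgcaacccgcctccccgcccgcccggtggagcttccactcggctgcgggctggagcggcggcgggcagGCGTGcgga
NR1D2, chr3:23945871-23946170, plus strand: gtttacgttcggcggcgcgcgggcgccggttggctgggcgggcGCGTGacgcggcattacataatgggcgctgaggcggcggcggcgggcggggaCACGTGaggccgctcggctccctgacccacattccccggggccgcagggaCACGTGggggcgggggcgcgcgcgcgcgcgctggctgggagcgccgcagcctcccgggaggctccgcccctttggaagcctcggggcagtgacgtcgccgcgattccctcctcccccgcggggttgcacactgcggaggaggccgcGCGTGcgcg
CACGTG begins 245 bases before the start in BHLHE40, 48 bases before it in BHLHE41 and 173 bases before it in PER1, and NR1D2 has it at 155 and 105 bases before the second of its annotated starts. Across all 35116 promoter windows of this length, 7.26% hold CACGTG, against 4 of the 13 windows of the measured genes. BHLHE40 has 2 further ACGTG matches outside CACGTG, a pentamer present in 21.4% of windows when those within CACGTG are counted. Such matches outside CACGTG occur in 5 of the 9 measured genes: BHLHE40, PER2 (also with 2), CRY1, CRY2 and CLOCK. CRY2 has 1 in its first window and 2 in its second. GCGTG, present in 36.5% of windows, occurs once in BHLHE41, once in PER1 and at 2 positions in NR1D2. With CRY1 and CLOCK, 5 of the 9 genes hold it. Of these 4 genes, BHLHE40, BHLHE41 and NR1D2 were called in hypoxia and PER1 was not, where 12.3% of all genes were called. PER2, CRY1, CRY2, CLOCK and BMAL1, with no CACGTG in their windows, were not called there on the deposited scale. CRY1 lay near the threshold (limma adjusted p = 0.0514) and passed with 7 of the 9 other settings described below, and PER2 passed after cyclic loess. CACGTT, which differs from CACGTG in its last letter, is present in 5.34% of windows. It occurs in 4 of the 9 genes: PER2, CRY1, CRY2 and CLOCK. Whether these letters bear on the changes was not tested. A match is a description of the letters and not evidence of a bound site.

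The deposited values were used as log2 expression, in which 1 unit is a 2-fold difference, and a gene was called changed at a limma p-value under 0.05 after Benjamini-Hochberg adjustment over all 14232 genes. Replicate arrays of a group correlated at r = 0.983 to 0.994. HIF1A measured 7.74 to 9.06 with HIF1A siRNA and 11.26 to 11.72 with control siRNA in hypoxia. EPAS1 measured 6.99 to 7.18 with HIF2A siRNA and 9.57 to 9.83 with control siRNA. HIF1A siRNA left EPAS1 at 8.02 to 8.60, so in that group both transcripts were below hypoxia with control siRNA. EPAS1 was 8.42 to 8.59 in normoxia and rose in hypoxia (1.19, adjusted p = 7.1e-04). With HIF1A siRNA it was not called against normoxia (-0.29, adjusted p = 0.148), except without HIF1A siRNA replicate 1 (adjusted p = 0.011). Upper quartiles of all values were 7.88 to 8.22 on the arrays with HIF1A siRNA. They were 8.27 to 8.50 on those of hypoxia with control siRNA. Renormalized results are given where they end a call named here. Other values that renormalization moved, some by over 1.5 times, are given only in part. For HIF1A siRNA against normoxia the median log2 change over all genes was -0.12 as deposited, 0.0811 with quantile normalization, 0.0328 with cyclic loess and 0.0577 with median centring. Of the glioma markers, VIM, S100B, NES and CD44 lay between 9.36 and 12.50 on every array, well above the upper quartile of 8.57 of the array on which it was highest, while the astrocyte gene AQP4 lay below the lower quartile on every array (3.05 to 3.35). GFAP, OLIG2 and ALDH1L1 lay at 6.11 to 6.64, 6.63 to 7.07 and 5.46 to 5.92. Of the 8 measured of 9 genes in that list, S100B was lower in hypoxia (-0.63, adjusted p = 0.00909) and higher with HIF1A siRNA against control siRNA (0.85, adjusted p = 0.0029), and NES was lower in hypoxia (-0.41, adjusted p = 0.0112), not called after quantile normalization or cyclic loess, or without hypoxia control replicate 2 or normoxia replicate 1. The part of these markers in the results on clock genes was not tested. On the deposited scale, lists of neuron, oligodendrocyte, microglia, endothelium and epithelium markers had 0 limma calls in hypoxia and with either siRNA against control siRNA. At most 2 genes of a list had an unadjusted p under 0.05. CD68 was called higher with HIF1A siRNA against control siRNA after each renormalization, and in hypoxia after cyclic loess (adjusted p = 0.0279). With HIF1A siRNA, MBP was called higher with averaged probe sets (0.0474) and MOG without HIF1A siRNA replicate 1 (0.0251). Levels of the genes in these lists were not all low. KRT8 of the epithelium list lay at 10.85 to 11.64, with EPCAM at 2.09 to 2.66 and CDH1 at 4.23 to 4.44. CD68 of the microglia list lay at 8.23 to 8.85 and SYT1 of the neuron list at 7.87 to 8.82. All 5 measured of 6 hypoxia check genes rose in hypoxia and fell with HIF1A siRNA, a count that was 3 to 5 over other settings for HIF1A siRNA. The fall of the glucose transporter gene SLC2A1 (-0.46, adjusted p = 0.0416) kept its call in 1 of the 12 fits that leave out an array, and lost it with the replicate block (adjusted p = 0.0632), quantile normalization (-0.36), cyclic loess (-0.35) or median centring (-0.33). All 9 clock genes lay above the lower quartile of every array, the lowest at the 40.5th percentile of its array.

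BHLHE40 and BHLHE41 rose together in hypoxia and fell with HIF1A siRNA. BHLHE40 measured 11.16, 10.95 and 11.07 with control siRNA in hypoxia, against 10.02, 9.84 and 9.94 in normoxia. The groups did not overlap, and the rise was 2.19-fold (log2 change 1.13, SE 0.15, 3 arrays a group, adjusted p = 0.00118). With HIF1A siRNA in hypoxia it measured 10.36, 10.07 and 9.74, each below every control siRNA array, a fall of 2.004-fold (log2 change -1.003, SE 0.15, adjusted p = 0.00351). With HIF2A siRNA it measured 11.04, 10.71 and 11.05, which overlapped the control siRNA values (log2 change -0.13, SE 0.15, 95% interval -0.47 to 0.21).

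BHLHE41 measured 9.22, 8.86 and 8.64 with control siRNA in hypoxia, against 7.70, 7.63 and 7.73 in normoxia. The rise was 2.32-fold (log2 change 1.22, SE 0.16, adjusted p = 9.6e-04), with the lowest hypoxic array above the highest normoxic one. HIF1A siRNA brought it to 7.06, 7.41 and 6.999, a fall of 3.36-fold against control siRNA (log2 change -1.75, SE 0.16, adjusted p = 2.2e-04). Its log2 change ranked 29 from the most negative of the 14232 genes in that comparison. HIF2A siRNA left it at 8.999, 8.84 and 9.20, overlapping control siRNA (log2 change 0.11, SE 0.16, 95% interval -0.24 to 0.46). These rises and falls of BHLHE40 and BHLHE41 against hypoxic or normoxic control siRNA kept their calls with any 1 array left out. With only the 6 arrays compared, the fall of BHLHE40 with HIF1A siRNA was not called (adjusted p = 0.059), while that of BHLHE41 was (adjusted p = 0.0194).

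The siRNA groups were also set against each other directly, a difference that does not use the control siRNA arrays' means. BHLHE41 was 3.62-fold lower with HIF1A siRNA than with HIF2A siRNA (log2 change -1.86, SE 0.16, adjusted p = 1.5e-04), and this call held without any 1 array. BHLHE40 was 1.84-fold lower (log2 change -0.88, SE 0.15, adjusted p = 0.0085), but without HIF2A siRNA replicate 1 its adjusted p was 0.0502. Against normoxia, BHLHE40 in hypoxic cells with HIF1A siRNA did not pass (log2 change 0.13, SE 0.15, 95% interval -0.21 to 0.47), although it was called higher after quantile normalization (0.51) or cyclic loess (0.46). The order of BHLHE40 means was hypoxia with control siRNA (11.06 ± 0.10, SD), HIF2A siRNA (10.93 ± 0.19), HIF1A siRNA (10.06 ± 0.31) and normoxia (9.93 ± 0.09), with no call between the upper pair or between the lower pair on the deposited scale.

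BHLHE41 with HIF1A siRNA lay below its normoxic level, at 7.16 ± 0.22 against 7.69 ± 0.05 (log2 change -0.53, SE 0.16, adjusted p = 0.026), and the groups did not overlap. On leaving out HIF1A siRNA replicate 1 or 3, or any array of normoxia, it was no longer called (adjusted p up to 0.0921), and the same held with quantile normalization (-0.21), cyclic loess (-0.13) or median centring (-0.35). With HIF2A siRNA BHLHE41 stayed 2.50-fold above normoxia (log2 change 1.32, SE 0.16, adjusted p = 6.7e-04), and BHLHE40 2.004-fold above it (log2 change 1.003, SE 0.15, adjusted p = 0.00274).

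**Figure D1:**
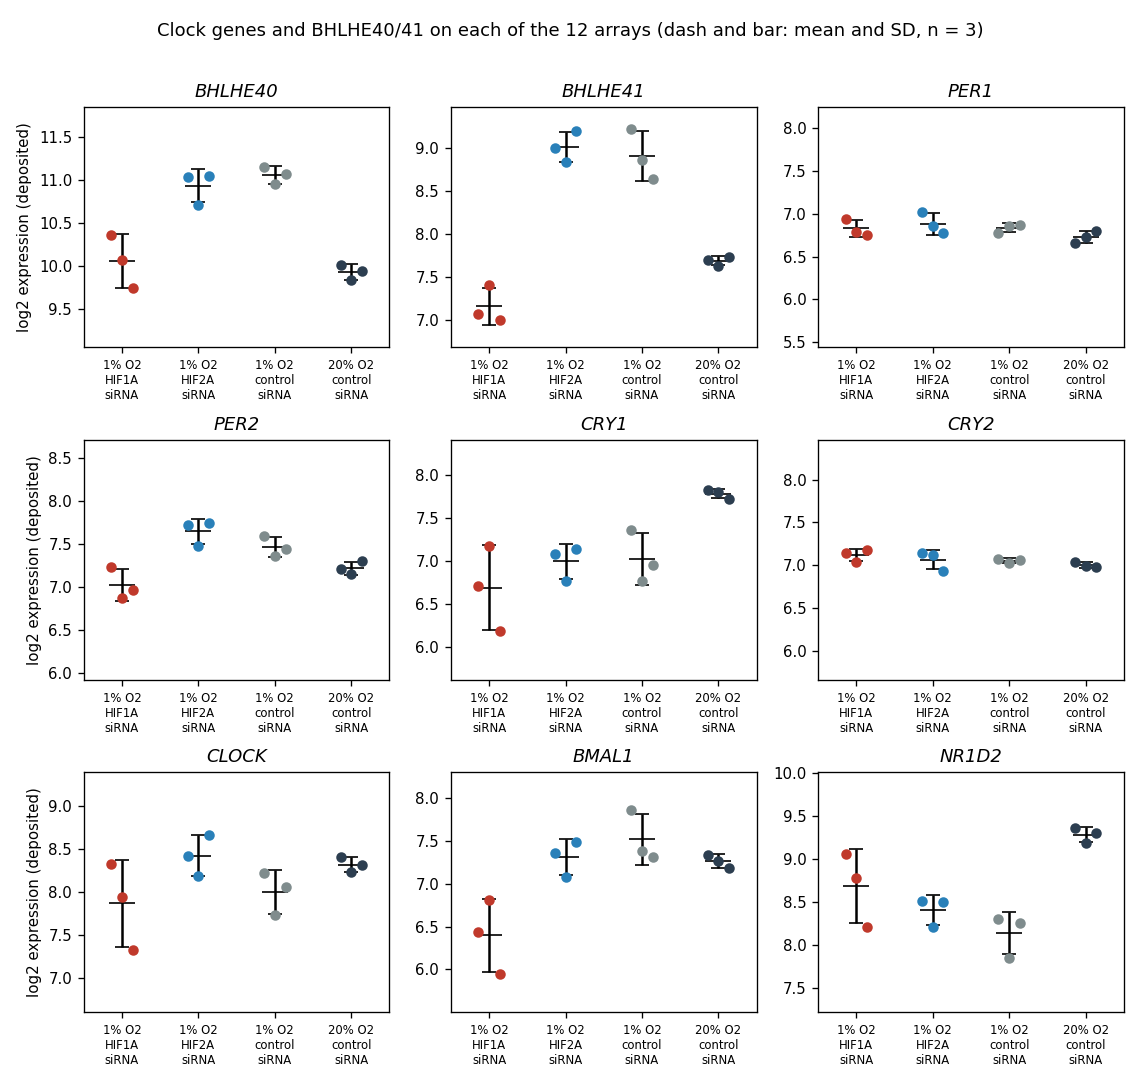
Deposited log2 expression of the 9 measured genes on each array, by group, with vertical axes of equal span; points are replicates 1 to 3 from left to right, dashes are means and bars are SD (n = 3). BHLHE40 and BHLHE41 are high in hypoxia with HIF2A or control siRNA and low with HIF1A siRNA or in normoxia, NR1D2 and CRY1 are highest in normoxia, and PER1 (6.66 to 7.02) and CRY2 (6.94 to 7.18) have the narrowest spans.

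BMAL1 fell with HIF1A siRNA, and CLOCK was not called. BMAL1 measured 7.85, 7.38 and 7.31 with control siRNA in hypoxia, against 7.34, 7.27 and 7.18 in normoxia, which overlapped and did not pass (log2 change 0.25, SE 0.21, 95% interval -0.21 to 0.72). With HIF1A siRNA it measured 6.44, 6.80 and 5.95, below every other array of the series. It was 2.17-fold lower than with control siRNA (log2 change -1.12, SE 0.21, adjusted p = 0.00964) and 1.82-fold lower than in normoxia (log2 change -0.87, SE 0.21, adjusted p = 0.0114). Both calls held with any 1 array left out and after quantile normalization (-1.03 and -0.68), cyclic loess (-0.99 and -0.66) or median centring (-0.997 and -0.69). With only the 6 arrays compared, the difference from control siRNA was not called (adjusted p = 0.0998).

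HIF2A siRNA gave BMAL1 values of 7.36, 7.08 and 7.48, overlapping control siRNA (log2 change -0.21, SE 0.21). The direct difference between HIF1A and HIF2A siRNA was -0.91 (SE 0.21, adjusted p = 0.0261), which lost its call without HIF1A siRNA replicate 3 (adjusted p = 0.0821), HIF2A siRNA replicate 1 (0.0999) or HIF2A siRNA replicate 3 (0.115). CLOCK, the histone acetyltransferase partner of BMAL1, measured 8.32, 7.95 and 7.33 with HIF1A siRNA, 8.42, 8.19 and 8.67 with HIF2A siRNA, 8.23, 7.73 and 8.06 with control siRNA in hypoxia, and 8.41, 8.24 and 8.31 in normoxia. It passed in none of the 6 comparisons. Its hypoxic change was -0.32 (SE 0.23, 95% interval -0.82 to 0.18), and -0.43 to -0.16 over all settings, and those groups did not overlap. HIF2A siRNA against control siRNA in hypoxia gave CLOCK a change of 0.42 (SE 0.23, 95% interval -0.08 to 0.92), with overlap. With HIF1A siRNA it stood at -0.56 against HIF2A siRNA (adjusted p = 0.123) and -0.45 against normoxia (adjusted p = 0.137). Without HIF1A siRNA replicate 1, CLOCK was called lower in both (-0.79, adjusted p = 0.0399, and -0.68, adjusted p = 0.0316). No other setting called either difference. Over all settings the first ran from -0.79 to -0.29 and the second from -0.68 to -0.0545 (adjusted p up to 0.363 and 0.81).

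NR1D2, which codes for a haem-binding repressor of BMAL1, fell in hypoxia. It measured 8.30, 7.85 and 8.25 with control siRNA in hypoxia, against 9.36, 9.19 and 9.31 in normoxia, a 2.22-fold fall with no overlap (log2 change -1.15, SE 0.20, adjusted p = 0.00419) that held with any 1 array left out. Its log2 change ranked 66 from the most negative of the 14232 genes in hypoxia. With HIF1A siRNA it measured 9.06, 8.78 and 8.21, which overlapped the control siRNA values and did not pass (log2 change 0.55, SE 0.20, adjusted p = 0.0924). The third of these arrays has the lowest SD and upper quartile of the 12, and without it NR1D2 was called higher than with control siRNA (log2 change 0.79, adjusted p = 0.0258), as it was after quantile normalization (0.83), cyclic loess (0.82) or median centring (0.67).

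NR1D2 with HIF1A siRNA was 1.52-fold below normoxia on the deposited scale (log2 change -0.60, SE 0.20, adjusted p = 0.038). That call ended without HIF1A siRNA replicate 2 or 3, HIF2A siRNA replicate 1 or any normoxia replicate (highest adjusted p 0.127), and after quantile normalization (-0.16), cyclic loess (-0.17) or median centring (-0.42), or with only the 6 arrays compared (adjusted p = 0.0796). With HIF2A siRNA it measured 8.52, 8.21 and 8.50, 1.84-fold below normoxia (log2 change -0.88, SE 0.20, adjusted p = 0.0191), with the call lost on omitting HIF2A siRNA replicate 2 or either of normoxia replicates 1 and 3 (adjusted p up to 0.0815). HIF2A siRNA and control siRNA did not differ by a call (log2 change 0.27, SE 0.20, 95% interval -0.17 to 0.71), nor did HIF1A and HIF2A siRNA (0.28, SE 0.20), although the siRNA groups were called apart after quantile normalization (0.56) and cyclic loess (0.55).

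PER2 was lower with HIF1A siRNA, by a call near the threshold, and PER1 was not called. PER2 measured 7.60, 7.37 and 7.44 with control siRNA in hypoxia, against 7.21, 7.15 and 7.30 in normoxia, without overlap, but did not pass (log2 change 0.25, SE 0.12, adjusted p = 0.23); it was called after cyclic loess (0.35). With HIF1A siRNA it measured 7.23, 6.87 and 6.97, a fall of 1.36-fold against control siRNA (log2 change -0.44, SE 0.12, adjusted p = 0.0401). This call was lost on leaving out any hypoxia control or normoxia replicate, HIF1A siRNA replicate 2 or 3, or HIF2A siRNA replicate 1 or 3 (highest adjusted p 0.169), with all 3 renormalizations (-0.26 to -0.32) and with array weights (adjusted p = 0.0579).

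With HIF2A siRNA PER2 measured 7.72, 7.48 and 7.74, 1.35-fold above normoxia (log2 change 0.43, SE 0.12, adjusted p = 0.0478), a call lost on leaving out any array of HIF2A siRNA, hypoxia control siRNA or normoxia (highest adjusted p 0.147). The direct difference between HIF1A and HIF2A siRNA was larger, at 1.54-fold (log2 change -0.62, SE 0.12, adjusted p = 0.0131), and was lost without HIF2A siRNA replicate 1 or 3 (highest adjusted p 0.0667). PER1, the period gene most directly induced by hormones and cAMP, lay between 6.66 and 7.02 on all 12 arrays. Its hypoxic change was 0.11 (SE 0.10, 95% interval -0.10 to 0.32), and with HIF1A siRNA it was -0.01 (SE 0.10, 95% interval -0.22 to 0.21). PER1 passed in none of the 6 comparisons on the deposited scale, but was called higher with HIF1A siRNA than in normoxia after quantile normalization (0.30), cyclic loess (0.24) or median centring (0.28).

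CRY1 was lower with HIF1A siRNA in hypoxia than in normoxia, and CRY2 was not called. CRY1, a strong inhibitor of CLOCK and BMAL1, measured 7.36, 6.77 and 6.96 with control siRNA in hypoxia, against 7.83, 7.81 and 7.72 in normoxia. Every hypoxic array was lower, but the difference did not pass (log2 change -0.76, SE 0.23, adjusted p = 0.0514). It passed with 7 of the 9 other settings. It also passed on omitting array 1 of hypoxia with control siRNA or array 2 or 3 of HIF1A siRNA, and over all such omissions its adjusted p was between 0.0145 and 0.193. With HIF1A siRNA it measured 6.71, 7.17 and 6.19, 2.14-fold below normoxia (log2 change -1.09, SE 0.23, adjusted p = 0.00656), a call that held with any 1 array left out. With HIF2A siRNA it measured 7.08, 6.76 and 7.15 (log2 change against normoxia -0.79, SE 0.23, adjusted p = 0.0512). That difference, too, passed with 7 of the 9 other settings and without the same 3 arrays, with an adjusted p between 0.0143 and 0.182 over the omissions.

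Neither siRNA changed CRY1 by a call against control siRNA in hypoxia (-0.34 and -0.03 for HIF1A and HIF2A siRNA, SE 0.23 each). CRY2 lay between 6.94 and 7.18 on all arrays, with a hypoxic change of 0.05 (SE 0.09, 95% interval -0.14 to 0.24), and passed in none of the 6 comparisons. The 3 HIF1A siRNA values of CRY2, 7.14, 7.04 and 7.18, did not overlap the normoxic values of 7.04, 6.99 and 6.98 (log2 change 0.12, SE 0.09), and that difference was called after quantile normalization (0.39), cyclic loess (0.31) or median centring (0.30).

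Counted together, 2 of the 9 genes were called higher and 1 lower in hypoxia, where 12.3% of all genes were called (3.37% higher and 8.95% lower), and the groups did not overlap for 6 of the 9 (38.4% of all genes). HIF1A siRNA against control siRNA gave 4 lower and 0 higher calls, where 11.1% of all genes were called (10.2% lower and 0.857% higher), and 4 of the 9 did not overlap (30.8% of all genes). HIF2A siRNA against control siRNA gave 0 calls with limma and 0 of the 9 genes had an unadjusted p under 0.05. There 0.00703% of all genes were called, which is EPAS1 alone, and 0 of the 9 did not overlap (9.36% of all genes).

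Set against HIF2A siRNA, HIF1A siRNA gave 4 lower and 0 higher calls, where 9.43% of all genes were called (8.53% lower and 0.899% higher), and 4 of the 9 did not overlap (30.5%). Hypoxia with HIF1A siRNA against normoxia gave 4 lower and 0 higher calls, where 35.0% of all genes were called (30.4% lower and 4.67% higher), and 5 of the 9 did not overlap (54.5%). Hypoxia with HIF2A siRNA against normoxia gave 3 higher and 1 lower, where 9.64% of all genes were called (2.85% higher and 6.79% lower), and 5 of the 9 did not overlap (36.7%). The shares of clock genes called with HIF1A siRNA against normoxia and of those that did not overlap there were thus close to those of all genes. Renormalization shifted the balance of directions. HIF1A siRNA against normoxia gave 3 higher and 2 lower calls with quantile normalization or cyclic loess and 2 higher and 2 lower with median centring, and against control siRNA it gave 1 higher (NR1D2) and 3 lower calls with each of them. Against HIF2A siRNA it gave 1 higher and 4 lower with quantile normalization or cyclic loess. Hypoxia with HIF2A siRNA against normoxia gave 3 higher and 2 lower calls with cyclic loess or median centring, and hypoxia against normoxia 2 higher and 2 lower with median centring. The comparisons share arrays, so their counts are not independent of each other.

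**Figure D2:**
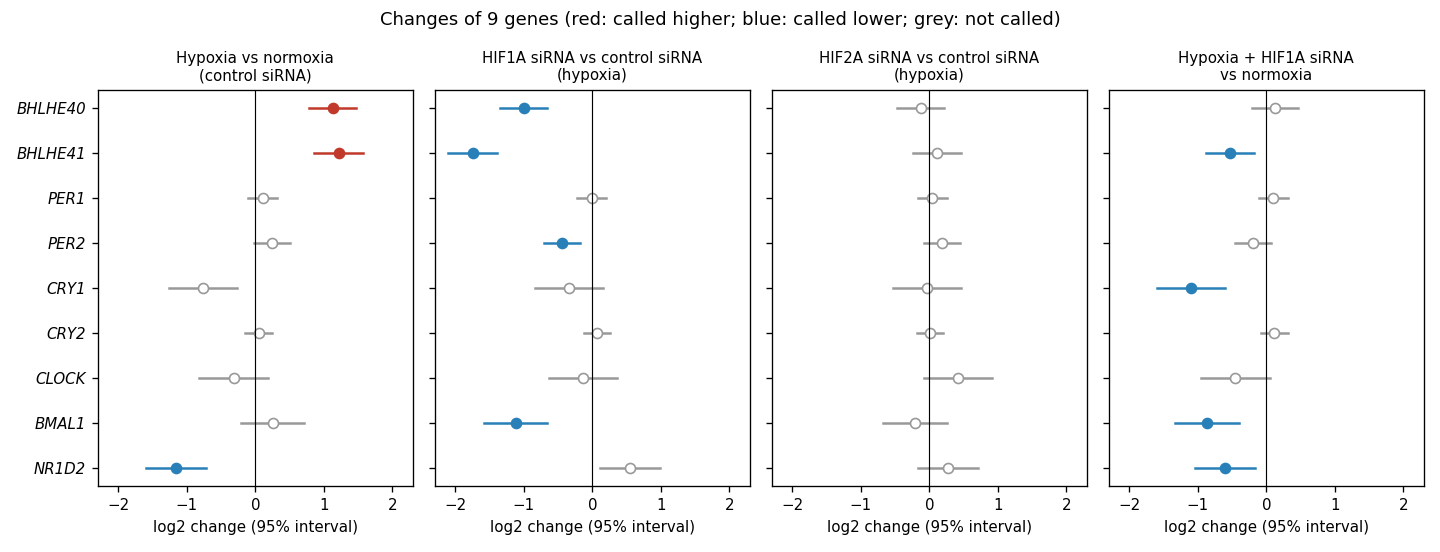
Log2 changes of the 9 measured genes with 95% intervals from limma (n = 3 per group) in 4 comparisons, filled where called at an adjusted p under 0.05. In hypoxia BHLHE40 (1.13) and BHLHE41 (1.22) are called higher and NR1D2 (-1.15) lower, HIF1A siRNA against control siRNA has BHLHE40, BHLHE41, BMAL1 and PER2 lower, and no gene is called with HIF2A siRNA against control siRNA.

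Other factors of the clock loop and its outputs were given by a list of 12 genes, of which 10 were measured. In hypoxia, where 12.3% of all genes were called, 2 of the 10 rose and 1 fell (median log2 change 0.10, against -0.03 over all genes). With HIF1A siRNA, where 11.1% were called, 4 fell and 0 rose (median -0.30, against -0.05). NFIL3, a repressor that acts at D-box elements, measured 8.002, 7.68 and 7.71 with control siRNA in hypoxia, against 6.59, 6.55 and 6.38 in normoxia, a 2.45-fold rise (log2 change 1.29, SE 0.27, adjusted p = 0.0112; 0.051 without normoxia replicate 3). It was 2.91-fold lower with HIF1A siRNA, at 6.46, 6.69 and 5.62 (log2 change -1.54, SE 0.27, adjusted p = 0.0072). CIART, an inhibitor of CLOCK and BMAL1 also called CHRONO, measured 7.55, 7.44 and 7.50 with control siRNA in hypoxia, against 6.81, 6.67 and 6.81 in normoxia (log2 change 0.73, SE 0.14, adjusted p = 0.00647), and 6.98, 6.77 and 6.49 with HIF1A siRNA (log2 change -0.75 against control siRNA, SE 0.14, adjusted p = 0.00848).

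Among the other members of that list, TIMELESS, a replication fork factor related to the fly clock gene, fell in hypoxia (-0.78, SE 0.15, adjusted p = 0.00783). BMAL2, a paralog of BMAL1, was not called in hypoxia (-0.08) but was 2.01-fold lower with HIF1A siRNA (log2 change -1.01, SE 0.26, adjusted p = 0.0316), a call lost without hypoxia control replicate 1 or 3, HIF1A siRNA replicate 1 or 3 or normoxia replicate 3 (highest adjusted p 0.141) and with array weights (-0.71, adjusted p = 0.109). NPAS2, a paralog of CLOCK, was lower with HIF1A siRNA (-0.39, SE 0.10, adjusted p = 0.0382), with the call kept in 2 of the 12 fits that leave out an array (highest adjusted p 0.148). The NPAS2 call also ended with quantile normalization (-0.14), cyclic loess (-0.16) or median centring (-0.27). The PAR bZIP outputs DBP, TEF and HLF stood at 0.10, 0.07 and -0.22 in hypoxia and were not called, and neither were RORA (0.32) and RORB (0.10), of the receptor family that activates BMAL1. HIF2A siRNA against control siRNA gave 0 calls with limma in this list, and in each of the lists that follow, where 0 or 1 gene a list had an unadjusted p under 0.05.

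Kinases, ubiquitin ligases and cofactors of the clock had 14 of 22 genes measured, with 1 rise and 1 fall in hypoxia (median -0.06) and 3 falls with HIF1A siRNA (median -0.33). The share called in hypoxia was near the 12.3% of all genes; 11.1% of all genes were called with HIF1A siRNA. PRKAA2, an AMPK catalytic subunit that marks cryptochromes for degradation, rose (0.79, SE 0.17, adjusted p = 0.0141; 0.0578 without normoxia replicate 1) and was lower with HIF1A siRNA (-0.73, adjusted p = 0.0254; up to 0.114 without hypoxia control replicate 1 or 3 or HIF1A siRNA replicate 3). The fall of PRKAA2 was -0.46 with quantile normalization and -0.47 with cyclic loess. SFPQ, a PER-associated RNA-binding protein, fell in hypoxia (-0.70, SE 0.13, adjusted p = 0.0058). HDAC3, the deacetylase recruited by REV-ERB receptors, was lower with HIF1A siRNA (-0.65, adjusted p = 0.0198; up to 0.0825 without hypoxia control replicate 1 or 3), with -0.39 after quantile normalization and -0.41 after cyclic loess. So was the demethylase KDM5A (-0.83, adjusted p = 0.0337), which kept its call in 5 of the 12 fits that leave out an array (highest adjusted p 0.151) and lost it with the replicate block (adjusted p = 0.0524) or array weights (-0.59, adjusted p = 0.11).

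The HES and HEY genes, which encode the repressor family closest to BHLHE40 and BHLHE41, had 8 of 9 measured. In hypoxia 1 fell and 0 rose (median -0.12): HES1 (-0.60, SE 0.12, adjusted p = 0.011; 0.0576 without normoxia replicate 1). That share is near the 12.3% of all genes called. HIF1A siRNA gave 0 calls with limma there (median 0.09), with 3 genes at an unadjusted p under 0.05. Over all settings that count was 0 to 2, with HES6 called higher after quantile normalization or cyclic loess and HEYL after quantile normalization. Of 9 measured bHLH-PAS factors outside the loop, ARNT2, a partner of HIF subunits, rose in hypoxia (0.52, SE 0.12, adjusted p = 0.0152; up to 0.0646 when array 1 of hypoxia with control siRNA, or array 1 or 3 of normoxia, was omitted) and was lower with HIF1A siRNA (-0.91, SE 0.12, adjusted p = 0.00139). It was the 1 called gene of its list in each comparison, a share near those of all genes (12.3% and 11.1%). Its general counterpart ARNT was not called in hypoxia (-0.19) or with HIF1A siRNA (-0.42). Over all settings these ran from -0.26 to -0.02 and from -0.60 to -0.15, and the second was called without HIF1A siRNA replicate 1 (adjusted p = 0.0325).

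Genes known as targets of CLOCK and BMAL1 or of BHLHE40 and BHLHE41 had 6 of 9 measured, with 2 falls and 0 rises in hypoxia (median -0.30) and 0 limma calls with HIF1A siRNA (median -0.14; 1 gene at an unadjusted p under 0.05). With HIF1A siRNA, NAMPT lay near the threshold (log2 change -0.56, adjusted p = 0.0511). It was called lower with 2 of the 9 other settings and in 2 of the 12 fits that leave out an array. In hypoxia 12.3% of all genes were called. The falls were those of PPARG, the adipocyte nuclear receptor (-0.66, SE 0.14, adjusted p = 0.0103; up to 0.0535 without hypoxia control replicate 2 or normoxia replicate 1), and SREBF1, a regulator of lipid synthesis (-0.41, SE 0.09, adjusted p = 0.0118). The SREBF1 call ended without normoxia replicate 2 or 3 (highest adjusted p 0.0539) and after quantile normalization (-0.26) or cyclic loess (-0.25). Signalling inputs to the PER genes had 9 of 10 measured, with 1 rise in hypoxia and 1 fall with HIF1A siRNA (medians -0.04 and -0.24), shares near those of all genes (12.3% and 11.1%). Each was SIK1, a kinase that limits cAMP signalling to PER1 in the mouse clock (0.73, SE 0.09, adjusted p = 7.5e-04, and -0.38, SE 0.09, adjusted p = 0.027). The fall of SIK1 ended without any hypoxia control replicate or HIF1A siRNA replicate 3 (highest adjusted p 0.0975) and after each renormalization (-0.12 to -0.25). With only the 6 arrays compared, ARNT2 kept its call with HIF1A siRNA (adjusted p = 0.044), and the others named here from these lists (NFIL3, CIART, BMAL2, NPAS2, PRKAA2, HDAC3, KDM5A and SIK1) did not (adjusted p 0.0598 to 0.192).

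**Figure D3:**
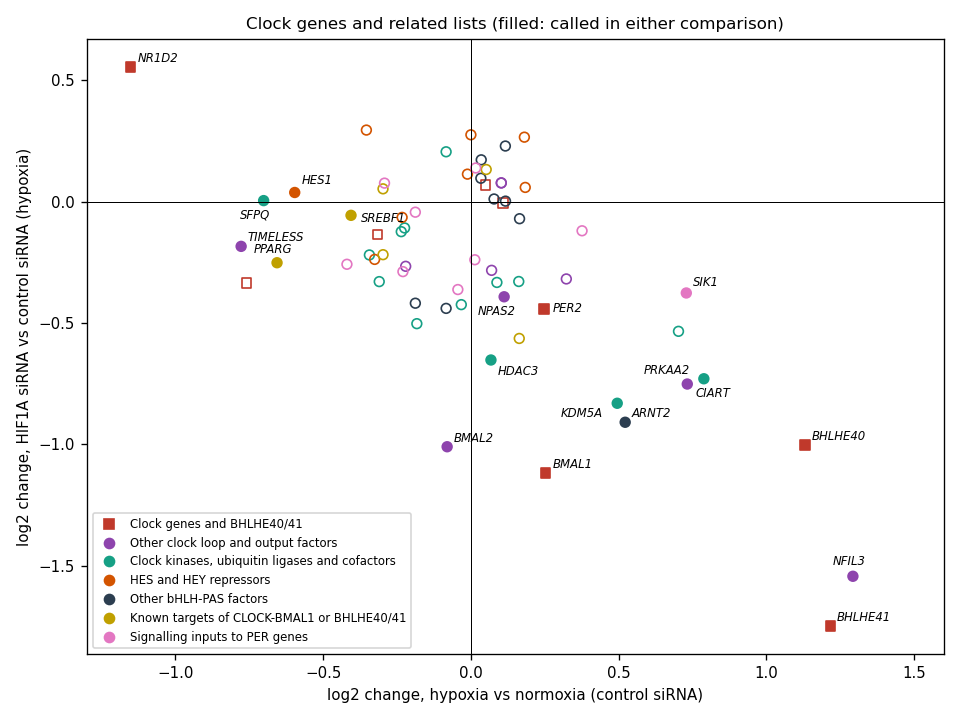
Log2 change in hypoxia against normoxia (horizontal) and with HIF1A siRNA against control siRNA in hypoxia (vertical) for the 9 clock genes (squares) and the measured genes of 6 related lists (circles), filled and named where called in either comparison. BHLHE41, BHLHE40, NFIL3, CIART, PRKAA2, SIK1 and ARNT2, called in both comparisons, lie at the lower right and NR1D2 at the upper left; the axes share the hypoxic control arrays, with opposite sign.

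The genes most like each member over the 12 arrays, by Pearson's r, were drawn from 1071 genes whose group means spanned at least 1 log2 unit. For BHLHE40 they were NDNF (r = 0.985), TCP11L2 (0.981) and FAM162A (0.980), and for BHLHE41 EEF1AKMT3 (0.979), HDHD5 (0.976) and the demethylase gene KDM4C (0.972). BMAL1 was closest to KATNAL1 (0.993), MYO1D (0.990) and DIAPH2 (0.987), whose hypoxic changes were 0.25, 0.35 and 0.20 and whose changes with HIF1A siRNA were -1.18, -1.24 and -1.27. CRY1 was closest to NETO2 (0.988), E2F8 (0.987) and ATAD2 (0.987), NR1D2 to NCEH1 (0.975), PPIL1 (0.974) and MTFR1 (0.971), and PER2 to CHST9 (0.971), ARHGEF37 (0.968) and PLEKHS1 (0.957). BHLHE40 and BHLHE41 correlated with each other at r = 0.898 and with PER2 at 0.841 and 0.884, over the same arrays. These values describe 12 arrays in 4 groups that share each array's overall range, and they carry no test.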

How the data were processed

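Transcripts were measured in 4 groups of 3 arrays on Affymetrix arrays, per the labels' protocols. The deposited values are 1 per probe set and array on a log scale, taken as log2 from their range (1.14 to 14.27). Partek and hg18 are named per the submitters' processing notes, with no role. How the authors corrected background and normalized is not given in the sources used here. Of 22011 probe sets, the annotation pairs 14432 with 1 symbol, 2408 with several and 5171 with none here. A gene took its brightest single-symbol probe set, and splice forms were not separated.

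Group means were fitted over all arrays and probe sets with limma 3.58.1 in R 4.3.3 (with data.table, version 1.17.8), with eBayes variances and Benjamini-Hochberg adjustment over 14232 genes. Errors are limma's SE; the number of arrays limits the precision. The code was tested on simulated data. Plots used matplotlib 3.10.9 and tables pandas 2.3.3. The rule for named genes takes all members, the siRNA targets, up to 4 called genes of each list and comparison, and the 3 genes most like each called member. Members and lists were chosen with earlier results of these data known. Other settings were 3 renormalizations, the compared arrays alone, a replicate block, a variance trend, array weights, a filter on dim probe sets, averaged probe sets, and leaving out each array.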

Additional observations from a re-analysis of the deposited data

How the results depend on the processing

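Over 21 other settings, no change of a clock gene that was called turned its direction, in any of the 6 comparisons. The rises of BHLHE40 and BHLHE41 and the fall of NR1D2 in hypoxia stayed called in all 21. The number of the 9 genes called in hypoxia was 5 with cyclic loess, against 3 on the deposited scale, with CRY1 and PER2 added. With only the 6 arrays compared, HIF1A siRNA against control siRNA and against HIF2A siRNA gave 1 call each (BHLHE41), against 4. That fit called 137 and 127 of all genes there, against 1573 and 1342, but 2548 in hypoxia, against 1754, and the cause was not tested. Leaving out 1 array gave 1 to 5 calls for HIF1A against HIF2A siRNA, 2 to 4 for HIF1A siRNA against normoxia, 2 to 5 for HIF2A siRNA against normoxia, 3 to 4 for hypoxia, 3 to 4 for HIF1A siRNA against hypoxic control siRNA, and 0 throughout for HIF2A siRNA against control siRNA.

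The replicate block gave 3, 4, 0, 4, 4 and 4 calls in the 6 comparisons, and changed no call of a clock gene; for HIF1A siRNA against control siRNA it ended those of KDM5A (adjusted p = 0.0524) and SLC2A1 (0.0632). Same-numbered arrays of different groups had deviations from their group means that correlated at -0.29 to 0.42 over 18 pairs, and 4 of the 12 arrays correlated best with their own number, so the numbers were not taken as pairs.

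All 30 sign changes were of values not called in either fit. For PER1 with HIF1A siRNA (-0.01) they were 0.14 with quantile normalization, 0.073 with cyclic loess and 0.11 with median centring, and -0.0636 to 0.0303 on leaving out an array; against HIF2A siRNA (-0.05) they were 0.10, 0.0226 and 0.0823, and -0.11 to 0.0152. CLOCK with HIF1A siRNA (-0.14) was 0.11 with quantile normalization and with cyclic loess, and -0.37 to 0.13 on leaving out an array. PER2 with HIF1A siRNA against normoxia (-0.19) was 0.0749 and 0.0611 with those settings. With HIF2A siRNA against control siRNA, CRY1 (-0.03) was 0.0668 with array weights and -0.16 to 0.13 on leaving out an array, CRY2 (0.01) was -0.0009 with median centring and -0.0255 to 0.0776, BHLHE41 (0.11) was -0.0238 to 0.26 and PER1 (0.05) was -0.0224 to 0.10. CRY2 with HIF1A against HIF2A siRNA (0.06) was -0.0014 with array weights and -0.0092 to 0.0941 on leaving out an array. Against normoxia, leaving out an array gave -0.0261 to 0.29 for BHLHE40 with HIF1A siRNA, and -0.0147 to 0.22 for CLOCK and -0.0424 to 0.16 for BMAL1 with HIF2A siRNA. The cause of these shifts was not tested. No measure of array background was used here, so how far it limits small changes of dim probe sets is unknown.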
